A study of Mus musculus with 17 samples.

Results

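The subunits of oxidative phosphorylation were followed as 95 protein-coding genes in mouse embryonic stem cells without and with a knockout of *Usb1*, which encodes an RNA exonuclease that trims the end of U6 small nuclear RNA. The members were chosen by gene name from the 54532 genes listed, of which 22046 are protein-coding. Of the 95 genes, 13 lie on mitochondrial DNA and 82 in the nucleus. The mitochondrial genes comprise 7 of complex I, 1 of complex III, 3 of complex IV and 2 of complex V. The nuclear genes comprise 35 of complex I, 4 of complex II, 8 of complex III, 17 of complex IV and 18 of complex V. A further 12 genes with matching names are not protein-coding and were left out, and a few true subunits whose names do not match (*Cox4i1*, *Cox7a2l*, *Cyc1*, *Cycs*, *Ndufab1* and *Cox4i2*) are described apart from the members. *Ndufa4* and its paralogue *Ndufa4l2* were counted with complex IV, where the *Ndufa4* protein resides.

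RNA was sequenced from R1 embryonic stem cells in 6 groups, which are 2 genotypes (wild-type and *Usb1* knockout) on 3 days (day 0, 1 and 3) of differentiation with retinoic acid (RA). Wild-type cells at day 0 had 2 libraries and every other group had 3. The knockout cells were 1 line, KO-1, made with CRISPR/Cas9, so the knockout and the history of that clone cannot be told apart. The study calls the libraries of a group biological replicates. The labels name no separate cultures, and p-values measure the spread between these libraries.

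Oxidative phosphorylation is carried out in the inner mitochondrial membrane. Complex I accepts electrons from NADH and complex II from succinate, complex III passes them to cytochrome c, complex IV reduces oxygen, and complex V, the ATP synthase, uses the resulting proton gradient to make ATP. Complexes I, III, IV and V are mosaics of subunits from both genomes, while all subunits of complex II are nuclear. Genes of mitochondrial DNA are transcribed by a dedicated polymerase as long precursors that are then processed into single RNAs, whereas each nuclear subunit gene has its own promoter. Pluripotent cells draw much of their ATP from glycolysis, and respiration is known to gain weight as they differentiate.

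The values are TPM, the share of transcripts that a gene contributes, counted per length of gene and scaled to the same total in every library, so levels can be compared between genes. Between 15404378 and 17300188 reads fell on genes in a library. Wild-type day 0 replicate 1 stood furthest apart, with 239 genes at 1 read and 17090 genes above 0. Wild-type day 0 replicate 2 and knockout day 3 replicate 1 had 1352 and 1224 genes at 1 read, against 2150 to 2467 in the other libraries. Both libraries of wild-type day 0 were thus low by this measure. *Usb1* itself was lower in the knockout at every day (log2 difference -1.20, -1.34 and -0.93 at day 0, 1 and 3). Summed levels of 8 embryonic stem cell markers were 9651 to 9712 TPM in wild-type cells, against 9414 to 10253 TPM in the knockout, at day 0, and 1026 to 1259 and 1411 to 1771 TPM at day 3. In bulk RNA, fewer cells of a type and less RNA per cell cannot be told apart.

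Before the values, the sequence of the mitochondrial genes has to be shown, because a stretch of mitochondrial DNA has a near-perfect copy on chromosome 1 of the nuclear genome. In GENCODE M21 (GRCm38), 7 pseudogenes on the minus strand of chr1:24611535-24616197 copy 7 of the 13 members nearly in whole or in part. *Gm28661* carried 99.6% of *mt-Co2* (681 of 681 aligned bases identical). Without a difference, *Gm10925* carried 99.6% of *mt-Atp6*, *Gm28437* 99.9% of *mt-Co3* and *Gm10222* 99.0% of *mt-Nd4l*. *Gm28438* matched *mt-Nd3* at 344 of 345 bases. *Gm28439* held 63.6% of *mt-Nd4* without a difference, and *Gm29216* 31.3% of *mt-Co1* with 1. The stretches below show 60 bases of a gene and of its copy for a pair without a difference and for both pairs with 1. Capitals mark the base that differs. For *mt-Co2* and *mt-Nd3* the stretch starts at the first base of the gene, and for *mt-Co1* at base 1063. Counted from 1 at the start of the stretch, with the base of the mitochondrial gene first, the differences are T3C for *mt-Nd3* and A4T for *mt-Co1*.
mt-Co2: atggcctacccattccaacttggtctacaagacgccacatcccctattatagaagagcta
Gm28661: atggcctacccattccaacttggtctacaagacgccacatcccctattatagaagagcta
mt-Nd3: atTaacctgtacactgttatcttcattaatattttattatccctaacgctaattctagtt
Gm28438: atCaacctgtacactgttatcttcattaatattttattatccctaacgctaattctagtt
mt-Co1: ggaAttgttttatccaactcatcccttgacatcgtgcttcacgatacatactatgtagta
Gm29216: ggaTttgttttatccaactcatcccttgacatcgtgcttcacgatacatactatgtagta

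Levels of the mitochondrial genes fell into 2 ranges along this border. The 6 genes that lie within the copied stretch (*mt-Co2*, *mt-Atp8*, *mt-Atp6*, *mt-Co3*, *mt-Nd3* and *mt-Nd4l*, chrM:7013-10173) had 0 to 688 TPM in any library. The other 7 (*mt-Nd1*, *mt-Nd2*, *mt-Co1*, *mt-Nd4*, *mt-Nd5*, *mt-Nd6* and *mt-Cytb*), of which *mt-Co1* and *mt-Nd4* are copied in part, had 2281 to 30762 TPM. The copies on chromosome 1 were listed with TPM of their own. *Gm28438* was listed at 297 to 628 TPM, against 6.02 to 66.2 TPM for *mt-Nd3*, which it copies, and *Gm28661* at 148 to 463 TPM, against 191 to 600.3 TPM for *mt-Co2*. How the authors' pipeline assigned a read that matches both places is not given in the sources used here, and its part in these levels was not tested. The values of these 6 genes are therefore given as uncertain, and results are also stated for the other 7 alone.

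The order of the 7 well-covered mitochondrial genes by mean TPM over the 17 libraries was *mt-Co1*, *mt-Nd1*, *mt-Cytb*, *mt-Nd2*, *mt-Nd5*, *mt-Nd6* and *mt-Nd4*. Transcripts of *mt-Co1* (chrM:5328-6872), the catalytic subunit of complex IV, stood highest of all 95 members, at 17685 to 30762 TPM. Next were *mt-Nd1* (chrM:2751-3707), a core subunit of the membrane arm of complex I, at 6457 to 12976 TPM, and *mt-Cytb* (chrM:14145-15288), the single mitochondrially encoded subunit of complex III, at 6127 to 13437 TPM. The remaining 4 overlapped in level, with *mt-Nd2* at 2911 to 5861, *mt-Nd5* at 2619 to 6573, *mt-Nd6* at 2281 to 6782 and *mt-Nd4* at 2439 to 5165 TPM. The gene *mt-Nd6* (chrM:13552-14070) is the single protein gene coded on the opposite strand of the mitochondrial genome. As the library kit does not mark strand, its reads cannot be told apart from those of the antisense transcript. The plot of mitochondrial genes in map order shows the gap between the 2 ranges.

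**Figure D1:**
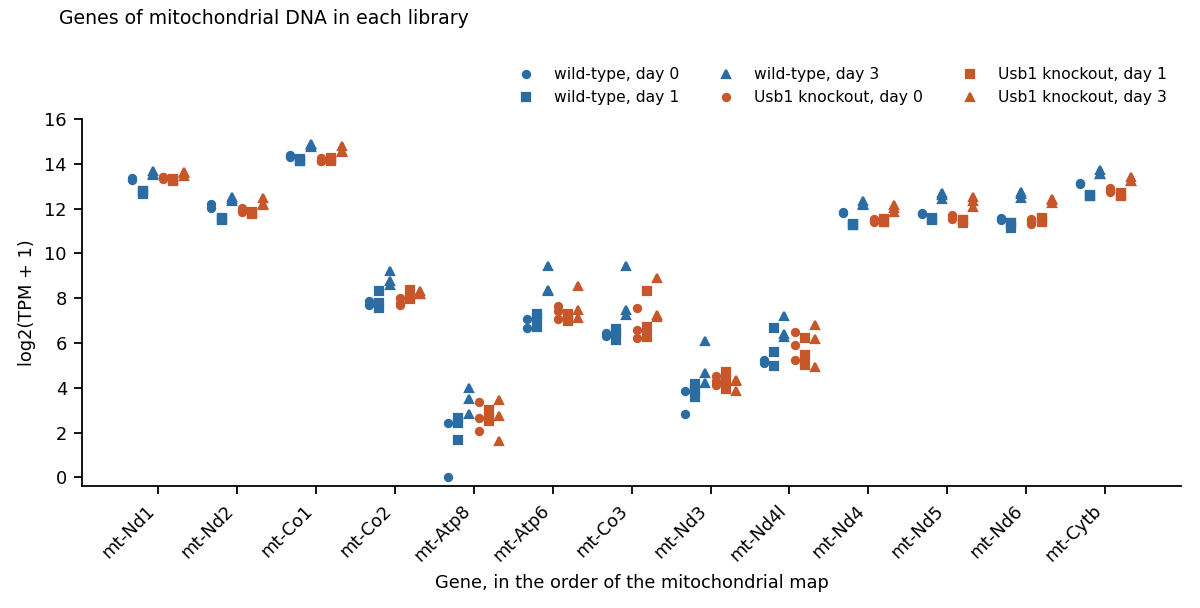
Level of the 13 mitochondrial genes in each of the 17 libraries, as log2(TPM + 1), with genes along the x axis in the order of the mitochondrial map, colour for genotype and marker shape for day. The 6 genes from mt-Co2 to mt-Nd4l, which have copies on chromosome 1 or lie between them, sit below the other 7, and the triangles of day 3 are the highest of their genotype for most of the 7.

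Nuclear members were expressed at lower and more even levels. Mean TPM over the libraries was at least 20 for 73 of the 82 and under 20 for 9, with a median of 139 TPM. The highest was *Cox6a1*, the broadly expressed form of complex IV subunit VIa, at 1009 to 2511 TPM. It was followed by *Atp5b* and *Atp5a1*, which encode the beta and alpha subunits of the catalytic head of ATP synthase, at 1058 to 1580.0 and 923 to 1247 TPM. *Cox8a* ranged from 429 to 1077 TPM and *Cox6b1* from 348 to 569 TPM. In complex III the highest was *Uqcr10*, a small accessory subunit (202 to 469 TPM). The complex II genes lay close together, from a mean of 246 TPM for *Sdha*, the flavoprotein, through *Sdhd* (224 TPM) and *Sdhc* (135 TPM), both membrane anchors, to 131 TPM for the iron-sulfur subunit *Sdhb*.

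Subunit forms known from muscle and testis were at the low end. *Cox6a2*, the heart and muscle form of subunit VIa, was above 0 in 5 libraries of day 1 and in no library of another day, and reached 1.13 TPM. *Cox8b* was at 0 to 1.93 TPM, *Cox7b2* at 0 to 4.25 TPM and *Cox8c* at 0 to 7.68 TPM. *Cox7a1*, the muscle form of subunit VIIa, ranged from 2.60 to 38.4 TPM, against 243 to 379 TPM for its broadly expressed partner *Cox7a2*. *Cox6b2*, known from testis, reached 121 TPM and so was not confined to trace levels here. A second gene named *Atp5o* (ENSMUSG00000116933) was listed at 0 in every library, and it and *Cox6a2* did not pass the filter of at least 1 TPM in at least 2 libraries. The other 93 members, 13 mitochondrial and 80 nuclear, were tested with limma on log2(TPM + 1) among 21871 genes, and a gene is said to rise or fall at a Benjamini-Hochberg adjusted p under 0.05. Log2 differences are on this scale, and the added 1 makes them too small for members at a few TPM.

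Together the 13 mitochondrial genes took 4.19% to 8.32% of all TPM in a library, and the 82 nuclear genes 1.35% to 1.96%. Summed mitochondrial TPM in wild-type cells was 56380.2 and 54107 at day 0, 41899.9, 43012 and 43859.5 at day 1 and 83243, 74856 and 76123 at day 3, so that the 3 days did not overlap and day 1 was lowest. In knockout cells it was 52090.5, 50019 and 47604 at day 0, 50319.5, 46544 and 46302 at day 1 and 65947, 64790.2 and 74935 at day 3. Here day 0 and day 1 overlapped, and day 3 lay above both. Nuclear sums moved less, with means of 15529.9 ± 668, 17729.9 ± 235 and 16092 ± 1252 TPM (SD, n = 2, 3 and 3) at day 0, 1 and 3 in wild-type and 17144 ± 739.8, 18570.3 ± 889.6 and 15243 ± 1618 TPM (SD, n = 3 each) in knockout cells. The ratio of the mitochondrial to the nuclear sum was 3.56 ± 0.0495 in wild-type cells at day 0 (SD, n = 2), 2.42 ± 0.0454 at day 1 and 4.87 ± 0.379 at day 3 (n = 3 each). The same ratio in knockout cells was 2.92 ± 0.233, 2.58 ± 0.206 and 4.56 ± 0.874 (n = 3 each). These sums are dominated by the 7 well-covered genes. The sum of the 6 within the copied stretch was 467 ± 6.84 TPM at day 0 and 1404 ± 486 TPM at day 3 in wild-type cells.

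**Figure D2:**
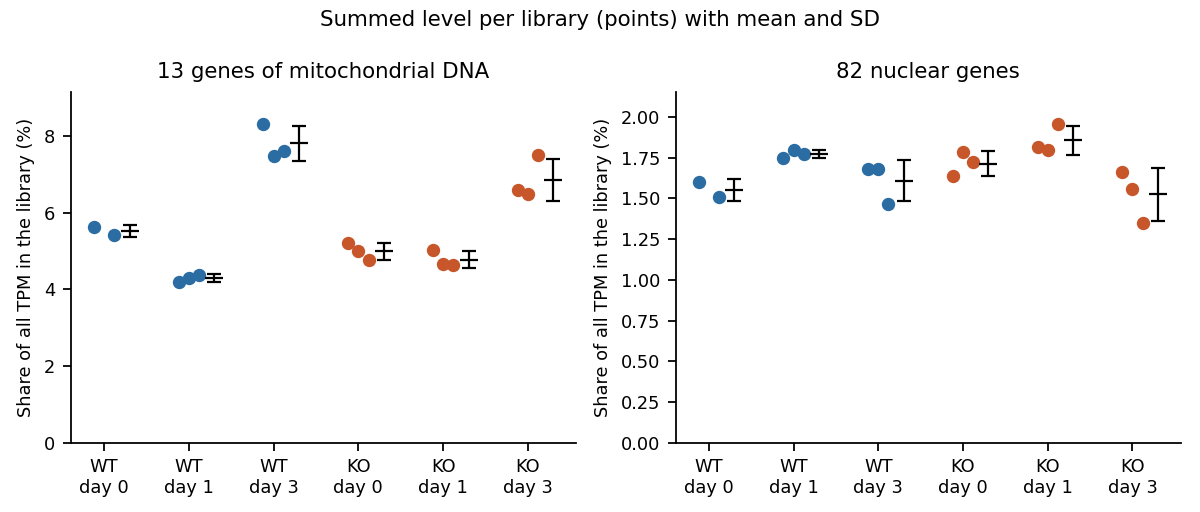
Share of all TPM in a library taken by the 13 mitochondrial genes (left) and the 82 nuclear genes (right), in percent, for each library (points) with the group mean and SD (bars) in wild-type (WT) and Usb1 knockout (KO) cells. The mitochondrial share is highest at day 3 in both genotypes and lowest at day 1 in wild-type cells, while the nuclear share stays between 1.35% and 1.96%.

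Differentiation for 3 days was compared with day 0 first in wild-type cells. Mitochondrial genes rose, while nuclear genes were divided, with more that fell than rose. Of the 13 mitochondrial genes, 12 rose, and over all genes tested 29.6% rose. Of the 80 nuclear genes, 16 rose and 24 fell, and over all genes tested 22.5% fell. The median log2 difference was 1.08 for the mitochondrial and -0.11 for the nuclear members, beside 0.10 for all genes. All 13 mitochondrial genes had wild-type groups of day 0 and day 3 that did not overlap, as did 47 of the nuclear ones. Here and below, counts of members without overlap have no count over all genes beside them, so whether they are unusual cannot be said. Among the 7 mitochondrial genes outside the copied stretch, all rose, with a median of 0.47. The nuclear share that rose was thus below that of all genes and the share that fell above it. The counts depend on scaling. Setting every library to the same median moved each log2 difference in this comparison by -0.19. With every library set to the same median, 6 of the 13 mitochondrial genes rose, and 6 nuclear genes rose and 30 fell, whereas after quantile normalization 9 mitochondrial genes rose and 1 fell, and 21 nuclear genes rose and 17 fell. Where counts from another setting stand without a count over all genes, here and below, they show only how the calls depend on the setting. Quantile normalization gives every library the same values by rank. For the highest genes, such as the 7 mitochondrial ones outside the copied stretch, it follows rank alone. Here and below it therefore cannot test a change in their amount.

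Among the 7 mitochondrial genes outside the copied stretch, the most stable rises were in *mt-Nd5* and *mt-Nd6*, complex I subunits that neighbour each other on the map. For *mt-Nd6*, wild-type levels were 2850.4 and 3026 TPM at day 0 and 6782, 6545 and 5733 TPM at day 3 (log2 difference 1.11, SE 0.09, adjusted p = 1.14e-07). For *mt-Nd5* (chrM:11742-13565) they were 3561 and 3454 TPM and 6336, 5558 and 6573 TPM (log2 difference 0.81, SE 0.11, adjusted p = 1.79e-05). Every day 3 library lay above both day 0 libraries for each gene, and each call held in all 16 alternatives tried. As the reads of *mt-Nd6* cannot be told apart from those of the antisense transcript, its rise cannot be assigned to the *mt-Nd6* RNA itself. Smaller rises were seen for *mt-Co1*, at 21498 and 20462 TPM at day 0 and 30762, 27371 and 29149 TPM at day 3 (log2 difference 0.47, SE 0.10, adjusted p = 0.00089), and for *mt-Cytb* (0.48, adjusted p = 0.000133). With an equal median, *mt-Co1*, *mt-Cytb*, *mt-Nd4*, *mt-Nd2* and *mt-Nd1* were no longer called, and after quantile normalization *mt-Nd1* was called lower at day 3 (log2 difference -0.23). The latter value follows rank among the highest genes and says nothing of amount. The calls of *mt-Nd1* and *mt-Nd2* were also lost without wild-type day 0 replicate 2 (adjusted p = 0.168 and 0.114), and that of *mt-Nd1* without wild-type day 3 replicate 1 (adjusted p = 0.0905).

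Within the copied stretch the rises were larger and the libraries more spread. Levels of *mt-Atp6*, a membrane subunit of ATP synthase, were 101 and 133 TPM at day 0 and 687, 329 and 315 TPM at day 3 (log2 difference 1.83, SE 0.38, adjusted p = 0.000888). For *mt-Co2*, which carries the copper site that takes electrons from cytochrome c, they were 235 and 205 TPM and 433, 600.3 and 386 TPM (log2 difference 1.08, SE 0.20, adjusted p = 0.000367). Neither gene's groups overlapped, and both calls held in all 16 alternatives. Levels of *mt-Co3* were 86.8 and 78.9 TPM and 688, 176 and 150.0 TPM, a log2 difference of 1.66 that missed the threshold (adjusted p = 0.0621). With the TPM of each nearly whole chromosome 1 copy added to its gene, an alternative chosen after the data had been seen, *mt-Co2* (log2 difference 1.15, SE 0.17, adjusted p = 3.2e-05), *mt-Atp6* (log2 difference 1.56, SE 0.29, adjusted p = 0.000377) and *mt-Co3* (log2 difference 1.51, SE 0.43, adjusted p = 0.0086) were called higher at day 3. The difference of *mt-Nd3* then shrank from 1.63 to 0.39 (adjusted p = 0.0109), and that of *mt-Nd4l* was no longer called (0.59, adjusted p = 0.103). The call of *mt-Atp8* rests on few reads, between 0 and 14 in a library, and it and that of *mt-Nd3* were lost without wild-type day 0 replicate 1 (adjusted p = 0.226 and 0.103). The call of *mt-Nd4l* was lost without any 1 of the 5 libraries (adjusted p = 0.0511 to 0.154). In a fit of these 5 libraries alone, 5 of the 13 mitochondrial genes rose, and 11 nuclear genes rose and 13 fell.

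Among the nuclear genes of complex IV, *Cox6a1* showed the largest rise of a well-expressed member. Wild-type levels were 1121 and 1009 TPM before RA and 2511, 2429 and 1905 TPM at day 3 (log2 difference 1.09, SE 0.15, adjusted p = 1.64e-05). No day 3 library came near the day 0 range, and the call held in all 16 alternatives. *Cox5b* (0.62, adjusted p = 0.00517) and *Cox6b1* (0.51, adjusted p = 0.00168) also rose, whereas *Cox5a* (-0.45, adjusted p = 0.00101) and *Cox6b2* (-0.49, adjusted p = 0.011) fell. The partners *Cox6b1* and *Cox6b2*, alternative forms of subunit VIb, thus moved in opposite directions.

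Complex III had genes that moved each way. *Uqcrc1*, a core protein of the matrix side, fell from 419 and 339 TPM to 210.1, 228 and 205 TPM (log2 difference -0.81, SE 0.09, adjusted p = 1.95e-06), and *Uqcrfs1*, the Rieske iron-sulfur protein, from 338 and 265 TPM to 167, 182 and 179 TPM (log2 difference -0.77, SE 0.09, adjusted p = 3.98e-06). *Uqcrc2* and the small subunit *Uqcrq* fell as well. Of the 8 nuclear genes, 4 fell and 2 rose, namely *Uqcr11* (0.73, adjusted p = 0.00312) and *Uqcrh* (0.42, adjusted p = 0.0019), both small accessory subunits. The call of *Uqcr11* was lost with an equal median.

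In complex I, 8 of the 35 nuclear genes rose and 9 fell. The largest rise was that of *Ndufa3*, an accessory subunit, from 29.7 and 32.3 TPM at day 0 to 69.8, 82.7 and 59.7 TPM at day 3 (log2 difference 1.15, SE 0.21, adjusted p = 0.000349). *Ndufb7* rose from 47.9 and 33.7 TPM to 76.4, 69.9 and 62.6 TPM (log2 difference 0.77, SE 0.14, adjusted p = 0.000248). The largest falls were in *Ndufs1*, the large iron-sulfur subunit of the peripheral arm, from 115 and 112 TPM to 69.8, 70.2 and 68.6 TPM (log2 difference -0.69, SE 0.06, adjusted p = 6.94e-08), and in the accessory subunit *Ndufb10* (-0.68, adjusted p = 0.000509). The groups of day 0 and day 3 did not overlap for any of these 4 genes. Also lower at day 3 were *Ndufs7*, *Ndufv1* and *Ndufv2*, which like *Ndufs1* belong to the core of the enzyme. All 7 mitochondrial subunits of complex I, which are core subunits too, rose.

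ATP synthase had 3 nuclear genes that rose and 7 that fell of 17 tested. *Atp5s*, which encodes a coupling factor associated with the enzyme, rose from 7.91 and 11.8 TPM to 19.7, 23.3 and 22.3 TPM (log2 difference 1.09, SE 0.17, adjusted p = 6.7e-05). *Atp5g1*, one of 3 genes for the c subunit of the rotor, fell from 85.4 and 84.3 TPM to 59.0, 61.8 and 53.0 TPM (log2 difference -0.54, SE 0.07, adjusted p = 1.57e-05). Its partner *Atp5g3* fell less (-0.23, adjusted p = 0.0146), and *Atp5g2* had a log2 difference of 0.10 (adjusted p = 0.42). *Atp5a1* and *Atp5b*, of the catalytic head, fell by 0.29 and 0.27 on the log2 scale. In complex II, *Sdhb* (-0.40, adjusted p = 0.00803) and *Sdhc* (-0.25, adjusted p = 0.019) fell, while *Sdha* was at -0.06 (adjusted p = 0.347).

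The same comparison in knockout cells gave the same ordering of the 2 genomes, with fewer rises. Here 6 of 13 mitochondrial genes rose, beside 29.7% of all genes, and 9 of 80 nuclear genes rose and 33 fell, beside 21.8% of all genes that fell. Medians were 0.40 for the mitochondrial, -0.22 for the nuclear and 0.03 for all genes. The groups of day 0 and day 3 did not overlap for 8 mitochondrial and 46 nuclear genes. With an equal median, 2 mitochondrial genes rose, and 2 nuclear genes rose and 47 fell. All 6 that rose lie outside the copied stretch, where the median was 0.48. Within the stretch none was called and the median was 0.21. As both genotypes' comparisons are reported for the same members, the values stand side by side below, and the difference between them is tested further on.

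Again *mt-Nd6* rose most among the well-covered genes, from 2800.2, 2976 and 2590.1 TPM at day 0 to 5331, 4900.4 and 5482 TPM at day 3 (log2 difference 0.91, SE 0.08, adjusted p = 2.71e-07), and *mt-Nd5* followed (0.69, adjusted p = 2.83e-05). The groups did not overlap for either gene, and both calls held in all 17 alternatives. Here too the reads of *mt-Nd6* may include those of the antisense transcript. The difference for *mt-Co1* was 0.48, adjusted p = 0.000309, and for *mt-Cytb* 0.47, adjusted p = 5.12e-05, and both calls were lost with an equal median.

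Falls in knockout cells were led by small subunits of complexes III and IV. *Uqcrq* was at 176, 194 and 178 TPM at day 0 and 86.2, 80.7 and 66.8 TPM at day 3 (log2 difference -1.23, SE 0.09, adjusted p = 2.44e-08). *Cox7c*, an accessory subunit of complex IV, went from 497, 556 and 502 TPM to 276, 272 and 229 TPM (log2 difference -1.0, SE 0.09, adjusted p = 2.57e-07). In both genes every day 3 library was under every day 0 library by a wide margin. *Uqcr10* (-0.87, adjusted p = 2.88e-05), *Atp5g1* (-0.82, adjusted p = 5.64e-08) and *Cox8a* (-0.72, adjusted p = 0.000427) fell as well, and these 5 calls held in all 17 alternatives. By complex, the nuclear genes that rose and fell numbered 4 and 9 of 35 in complex I, 1 and 3 of 4 in complex II, 0 and 5 of 8 in complex III, 2 and 7 of 16 in complex IV and 2 and 9 of 17 in complex V. In complex II, *Sdhb*, *Sdhc* and *Sdhd* fell and *Sdha* rose (0.14, adjusted p = 0.022). *Cox6a1* rose in knockout cells also, from 1183, 1301 and 1274 TPM to 1917, 1992 and 1349 TPM (log2 difference 0.46, SE 0.13, adjusted p = 0.0079), a call that was lost with an equal median. *Atp5s* rose (1.05, adjusted p = 3e-05) and held under every alternative.

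**Figure D3:**
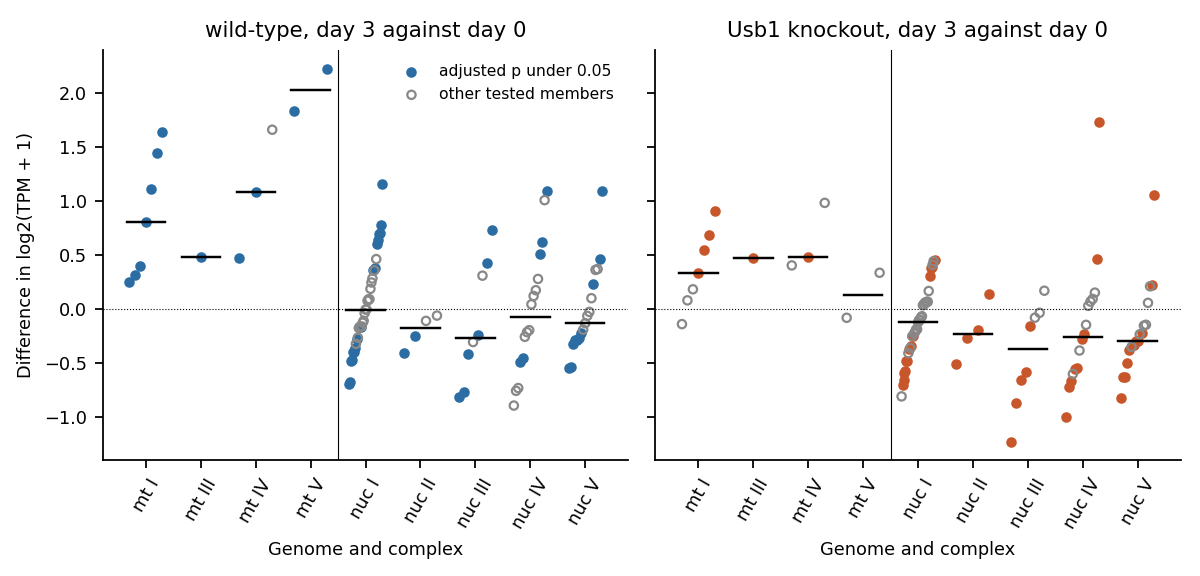
Log2 difference of day 3 minus day 0 on the log2(TPM + 1) scale for each tested member, in wild-type (left) and Usb1 knockout cells (right), by genome (mt, mitochondrial; nuc, nuclear) and complex, with filled points for an adjusted p under 0.05 and a line at the median. In wild-type cells all mitochondrial points lie above 0 and the nuclear medians lie at or below it, with filled points on both sides.

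Day 1 was compared with day 0 to see how early these changes began. In wild-type cells 4 of the 13 mitochondrial genes fell at day 1 (*mt-Nd1*, *mt-Nd2*, *mt-Nd4* and *mt-Cytb*), beside 12.5% of all genes that fell, and none rose. These 4 lie outside the copied stretch, where the median log2 difference of the 7 genes was -0.54. Within the stretch none was called, and all 6 values were above 0, with a median of 0.36. Of the nuclear genes 23 rose, beside 25.5% of all genes, and 4 fell (*Uqcrc1*, *Ndufv1*, *Atp5l* and *Ndufs1*). The share of nuclear genes that rose, at 23 of 80, was thus near that of all genes. Medians were -0.19 for mitochondrial genes, 0.16 for nuclear genes and 0.17 for all genes, and with an equal median the nuclear median turned to -0.02, with 6 nuclear genes that rose and 5 that fell. After quantile normalization the mitochondrial median was 0.00, with the same count of 4 that fell. The groups did not overlap for 7 mitochondrial and 44 nuclear genes.

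For *mt-Nd1*, wild-type levels were 10670.2 and 9826 TPM at day 0 and 6457, 7026 and 7093 TPM at day 1 (log2 difference -0.58, SE 0.09, adjusted p = 9.36e-05). For *mt-Cytb* they were 8845 and 9111 TPM and 6129.9, 6166 and 6281 TPM (log2 difference -0.54, SE 0.08, adjusted p = 0.000103). The groups were well apart in both genes. The log2 difference was -0.58, adjusted p = 0.000158 for *mt-Nd2* and -0.56, adjusted p = 0.000107 for *mt-Nd4*, and these 2 calls held in all 16 alternatives. In contrast *mt-Co1*, in the same range of levels, had a log2 difference of -0.19 (adjusted p = 0.142), *mt-Nd5* of -0.23 (adjusted p = 0.111) and *mt-Nd6* of -0.23 (adjusted p = 0.0601).

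The largest rise at day 1 was that of *Ndufa4l2*, a paralogue of *Ndufa4* known to be induced by hypoxia. Its levels were 8.98 and 22.3 TPM in wild-type cells at day 0, 63.4, 63.6 and 63.4 TPM at day 1 and 7.70, 9.26 and 7.20 TPM at day 3. In knockout cells it was at 2.37, 4.01 and 10.3, 45.7, 32.9 and 42.9 and 12.9, 22.7 and 20.2 TPM on the same days. Day 1 was the highest day in both genotypes and overlapped with no other (log2 difference 2.08, SE 0.42, adjusted p = 0.00121 in wild-type, log2 difference 2.84, SE 0.37, adjusted p = 4.58e-05 in knockout cells). *Ndufa4* itself rose at day 1 by far less (0.34, adjusted p = 0.00595 in wild-type and 0.27, adjusted p = 0.0158 in knockout cells). *Cox7a1* also peaked at day 1, with 20.9, 32.2 and 25.5 TPM in wild-type cells, against 29.3, 26.9 and 38.4 TPM in the knockout, beside 9.0 and 9.28 and 12.6, 19.6 and 11.4 TPM at day 0 (adjusted p = 0.0186 and 0.0474). Its groups of day 0 and day 1 did not overlap in either genotype. Its calls were lost in 4 of 16 alternatives in wild-type cells, among them those without wild-type day 0 replicate 1 or 2 or day 1 replicate 2 (adjusted p up to 0.0828), and in knockout cells without day 0 replicate 1 or 3 or any 1 of the 3 day 1 libraries (adjusted p up to 0.15).

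Other rises at day 1 in wild-type cells were in small subunits. *Ndufa3* went from 29.7 and 32.3 TPM to 61.9, 61.1 and 65.7 TPM (log2 difference 1.00, SE 0.21, adjusted p = 0.00204) and *Atp5k*, the e subunit of ATP synthase, from 37.0 and 53.9 TPM to 79.2, 85.1 and 104 TPM (log2 difference 0.97, SE 0.18, adjusted p = 0.000637). Both calls held in all 16 alternatives, and neither gene's groups overlapped. *Uqcrb*, a small subunit of complex III, rose in wild-type (0.94, adjusted p = 0.000152) and in knockout cells (0.54, adjusted p = 0.00593).

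In knockout cells at day 1, 14 of 80 nuclear genes rose, beside 16.0% of all genes, and 0 fell, beside 11.7% of all genes. The count that rose thus lay near the background, and the count that fell lay below it. The nuclear median was 0.12 and that of all genes 0.02. The mitochondrial median was 0.02 for the 6 genes within the copied stretch and -0.11 for the 7 outside it. Groups of day 0 and day 1 did not overlap for 33 nuclear and 2 mitochondrial genes. No mitochondrial gene was called by limma, 1 had an unadjusted p under 0.05, and voom on recovered reads called 1. With an equal median 4 nuclear genes rose. The count of 14 that rose fell to 8 without knockout day 0 replicate 1 or replicate 3, and to 5 without knockout day 1 replicate 3. For *mt-Nd1* the levels were 11102, 10912 and 10188 TPM at day 0 and 10199.9, 9609 and 9996 TPM at day 1, a log2 difference of -0.11 (adjusted p = 0.327). The 14 include *Cox7b2*, known from testis, at 2.74, 1.5 and 4.25 TPM at day 1, beside 0.799, 0 and 0 TPM at day 0, from at most 12 reads in a library. It passed the filter on low values through libraries of day 1, so its call supports nothing.

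Knockout and wild-type cells were then compared at each day. At day 0, before RA, more nuclear members were higher than lower in the knockout. Of 80 nuclear genes 13 were higher and 3 lower, and of 13 mitochondrial genes 2 were lower. Over all genes 5.08% were higher and 6.80% lower. Medians were 0.15 for nuclear, 0.05 for mitochondrial and 0.00 for all genes. The mitochondrial median was 0.60 for the 6 genes within the copied stretch and -0.18 for the 7 outside it. No overlap between genotypes was seen for 34 nuclear and 6 mitochondrial genes, with no count over all genes to set beside these. With an equal median, 10 nuclear genes were higher and none of the members lower, beside 2492 of all genes called in either direction. In a fit of the 5 libraries of day 0 alone, limma called none of the members and 178 of all genes. This comparison rests on wild-type day 0 replicate 1, the library that stood furthest apart, and on replicate 2, which was also low in genes at 1 read. Leaving out 1 of them therefore does not remove this limit. Without replicate 1 the count of 18 calls became 5, against 19 without replicate 2, 8 without knockout replicate 2 and 11 without knockout replicate 3.

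*Uqcrq* was at 123 and 127 TPM in wild-type cells, against 176, 194 and 178 TPM in the knockout at day 0 (log2 difference 0.55, SE 0.10, adjusted p = 0.0037). *Cox7c* was at 359 and 368 TPM and 497, 556 and 502 TPM (log2 difference 0.51, SE 0.10, adjusted p = 0.0059). In both, the 2 wild-type libraries were close to each other and every knockout library was higher. *Uqcr10* (0.60, adjusted p = 0.0137) and *Uqcr11* (0.62, adjusted p = 0.039) made complex III the complex with the most calls for its size, 3 of 8. In complex I, *Ndufa13*, an accessory subunit also known as GRIM-19, was at 101 and 116 TPM in wild-type cells, against 162, 187 and 191 TPM in the knockout (log2 difference 0.72, SE 0.14, adjusted p = 0.00414), and 24.0% of its 100-base windows are shared with the overlapping gene *Tssk6*. For *Atp5k* the levels were 37.0 and 53.9 TPM and 73.1, 88.0 and 78.2 TPM (log2 difference 0.82, SE 0.18, adjusted p = 0.0102). Every knockout library was above both wild-type libraries, and the adjusted p without wild-type day 0 replicate 1 was 0.139.

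*Ndufa4l2* went the other way at day 0, with a log2 difference of -1.40 (adjusted p = 0.0427), but the groups overlapped, at 8.98 and 22.3 TPM in wild-type cells, against 2.37, 4.01 and 10.3 TPM in the knockout. Its call was lost without wild-type day 0 replicate 2 or without knockout replicate 1 or 2 (adjusted p = 0.244, 0.124 and 0.116). Lower as well in the knockout were *mt-Nd4*, at 3743 and 3590.5 TPM in wild-type cells, against 3003, 2829 and 2751 TPM in the knockout (log2 difference -0.36, SE 0.08, adjusted p = 0.0135), and *mt-Cytb*, at 8845 and 9111 TPM and 7673, 7374 and 6958 TPM (log2 difference -0.29, SE 0.08, adjusted p = 0.0303). Neither overlapped between genotypes, and both calls were lost with an equal median and without wild-type day 0 replicate 1. The call of *mt-Cytb* was also lost without wild-type replicate 2 or knockout replicate 2 or 3, and that of *mt-Nd4* without knockout replicate 3.

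At day 1 few members differed between the genotypes, and those called were higher in the knockout. Of 13 mitochondrial genes, 2 were higher (*mt-Nd1* and *mt-Nd2*), and of 80 nuclear genes 3 were higher (*Uqcrq*, *Atp5g1* and *Atp5s*), beside 3.74% of all genes that were higher and 13.6% that were lower. Medians were 0.23 for mitochondrial, 0.09 for nuclear and -0.13 for all genes. The mitochondrial median was 0.34 for the 6 genes within the copied stretch and 0.16 for the 7 outside it. Genotypes did not overlap for 5 mitochondrial and 29 nuclear genes. With an equal median 3 mitochondrial and 9 nuclear genes were higher, and after quantile normalization no mitochondrial gene was called. Over all genes these settings called 3024 and 2953. Without wild-type replicate 1 or knockout replicate 3 the 5 calls fell to 2, and without wild-type replicate 3 to 3. The call of *mt-Nd2* was lost without any 1 of the 6 libraries of day 1 (adjusted p = 0.0614 to 0.123). In a fit of these 6 libraries alone, 2 mitochondrial genes were higher, and 7 nuclear genes were higher and 3 lower. That fit called 3997 of all genes.

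The value that stood out was *mt-Nd1*, at 6457, 7026 and 7093 TPM in wild-type cells, against 10199.9, 9609 and 9996 TPM in the knockout (log2 difference 0.54, SE 0.08, adjusted p = 0.000296). No knockout library came near the wild-type range. The call held in the other alternatives and was lost after quantile normalization, which sets the values of the highest genes by rank and cannot test this change. For *mt-Co1* at the same day the libraries overlapped, at 18151, 18133 and 18835 TPM in wild-type cells, against 19877, 18246 and 17685 TPM in the knockout (log2 difference 0.02, adjusted p = 0.944). With the chromosome 1 copies added, *mt-Nd3* was higher in the knockout at day 1 (log2 difference 0.65, SE 0.10, adjusted p = 0.000782), against 0.45, adjusted p = 0.507 without them. *Uqcrq* was at 127, 118 and 124 TPM in wild-type cells, against 157, 158 and 185 TPM in the knockout (log2 difference 0.43, SE 0.09, adjusted p = 0.00473), without overlap, and its call held in all 17 alternatives. *Atp5s* was at 8.95, 9.79 and 11.7 TPM and 14.6, 15.8 and 17.7 TPM (log2 difference 0.62, SE 0.15, adjusted p = 0.0123), with the call lost without wild-type replicate 1 (adjusted p = 0.0627) or knockout replicate 3 (adjusted p = 0.063).

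At day 3 the calls among members were few and lower in the knockout. Of 13 mitochondrial genes 2 were lower (*mt-Co2* and *mt-Cytb*), beside 3.56% of all genes that were lower and 3.96% that were higher. Medians were -0.28 for mitochondrial, -0.01 for nuclear and 0.00 for all genes. The mitochondrial median was -0.73 for the 6 genes within the copied stretch and -0.22 for the 7 outside it. No nuclear gene was called by limma, 12 had an unadjusted p under 0.05, and voom on recovered reads called 0. The groups did not overlap for 4 mitochondrial and 5 nuclear genes. For *mt-Cytb* the levels were 13437, 11976 and 12131 TPM in wild-type cells, against 9729, 9808 and 10999 TPM in the knockout (log2 difference -0.30, SE 0.07, adjusted p = 0.019), and for *mt-Co2* 433, 600.3 and 386 TPM and 293, 317 and 291 TPM (log2 difference -0.63, SE 0.18, adjusted p = 0.0495). Neither gene's groups overlapped. Both calls were lost with an equal median. The call of *mt-Co2* was also lost without wild-type replicate 1 or 2 or any 1 of the 3 knockout libraries (adjusted p = 0.0798 to 0.199), and that of *mt-Cytb* without wild-type replicate 1 or knockout replicate 1 or 2 (adjusted p = 0.0602 to 0.1). In a fit of these 6 libraries alone, limma called none of the members and 591 of all genes. With the chromosome 1 copy added, *mt-Co2* was 896, 999.98 and 667 TPM in wild-type cells, against 524, 605 and 489 TPM in the knockout (log2 difference -0.65, SE 0.15, adjusted p = 0.0146).

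Cell identity moved with these comparisons, and its part in the members' differences was not tested. Summed levels of 8 primitive endoderm markers were 1569 to 1881 TPM in wild-type cells, against 636 to 759.6 TPM in the knockout, at day 3, and 146 to 171 and 104 to 126 TPM at day 0. All 8 rose from day 0 to day 3 in both genotypes, and 7 were lower in the knockout at day 3. At day 1 their sum was 149.7 to 172 TPM in wild-type cells, against 43.5 to 56.1 TPM in the knockout, with 7 of 8 lower in the knockout, and 4 had a negative difference between genotypes in the change from day 0 to day 1. All 8 embryonic stem cell markers fell from day 0 to day 3 in both genotypes, and 6 were higher and 1 lower in the knockout at day 3. At day 1 they summed to 8491 to 8964 TPM in wild-type cells, against 10537 to 11477 TPM in the knockout, with 3 of 8 higher in the knockout and the same number with a positive difference in the change from day 0 to day 1. Neural progenitor markers summed to 109.9 to 123 TPM at day 0 and 138 to 145 TPM at day 3 in wild-type and to 134 to 145 and 174 to 199 TPM in knockout cells, with 2 of 5 tested markers up and 2 down over the 3 days in each genotype. Fibroblast feeder markers summed to 4.79 to 6.41 and 6.96 to 9.01 TPM at day 0 and to 44.5 to 54.2 and 71.7 to 80.3 TPM at day 3, with 4 of 5 tested markers up and 1 down in each genotype.

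The test of the difference between genotypes in the change over time asks whether a member responded to RA differently in the knockout. From day 0 to day 1, 2 mitochondrial genes had a positive difference, beside 0.704% of all genes with a positive and 1.53% with a negative one. These were *mt-Nd1* (log2 difference 0.47, SE 0.11, adjusted p = 0.0496) and *mt-Nd4* (log2 difference 0.52, SE 0.11, adjusted p = 0.0302). Both fell at day 1 in the wild-type and were close to their day 0 level in knockout cells at day 1. For *mt-Nd4* the wild-type levels were 3743 and 3590.5 TPM at day 0 and 2439, 2498 and 2548 TPM at day 1, and the knockout levels were 3003, 2829 and 2751 TPM and 2977, 2684 and 2699 TPM. Of its 100-base windows 60.75% are shared with the copy *Gm28439* on chromosome 1, which was listed at 24.8 to 57.7 TPM. The median difference was 0.20 for the mitochondrial genes, -0.05 for the nuclear genes and -0.12 for all genes. It was -0.44 for the 6 mitochondrial genes within the copied stretch and 0.34 for the 7 outside it. No nuclear gene was called by limma, 9 had an unadjusted p under 0.05, and voom on recovered reads called 0. The 2 calls depended on single libraries. Without wild-type day 0 replicate 2 the count was 10, without knockout day 0 replicate 1 it was 1, and without any other of the 11 libraries in turn it was 0.

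From day 0 to day 3, 1 nuclear member had a positive and 5 a negative difference, beside 3.53% of all genes with a positive and 2.62% with a negative one. The negative differences were in subunits of complexes I, III, IV and V. For *Uqcrq* the levels were 123 and 127 TPM at day 0 and 98.2, 96.1 and 85.5 TPM at day 3 in wild-type cells, and 176, 194 and 178 TPM and 86.2, 80.7 and 66.8 TPM in knockout cells (log2 difference -0.81, SE 0.13, adjusted p = 0.00324). The genotypes were apart at day 0 and close at day 3. *Cox7c* showed the same shape, with wild-type levels of 359 and 368 TPM at day 0 and 350.3, 324 and 269.9 TPM at day 3 and knockout levels of 497, 556 and 502 TPM and 276, 272 and 229 TPM (log2 difference -0.79, SE 0.14, adjusted p = 0.00414). These 2 calls held in all 22 alternatives. Of the sequence windows of *Cox7c*, 16.2% are shared with other annotated genes, and of those of *Uqcrq* none.

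The other negative differences were in *Atp5k* (log2 difference -0.99, SE 0.24, adjusted p = 0.0268), *Ndufb4* (log2 difference -0.77, SE 0.20, adjusted p = 0.0388) and *Atp5h*, the d subunit of the stator of ATP synthase (log2 difference -0.47, SE 0.11, adjusted p = 0.0206). The same wild-type day 0 libraries enter these values and the comparison at day 0, so the 2 sets of values are not independent. Each of these 3 calls was lost without wild-type day 0 replicate 1 (adjusted p = 0.131, 0.179 and 0.0971). The positive difference was that of *Ndufa4l2* (log2 difference 2.49, SE 0.56, adjusted p = 0.0192), which at day 3 was above its day 0 level in knockout cells (1.73, adjusted p = 0.00116), while in wild-type cells the log2 difference was -0.76 (adjusted p = 0.146). No mitochondrial gene was called by limma, 4 had an unadjusted p under 0.05, and voom on recovered reads called 0. Medians were -0.20 for mitochondrial, -0.21 for nuclear and 0.01 for all genes. The mitochondrial median was -1.43 for the 6 genes within the copied stretch, whose values are uncertain, and -0.006 for the 7 outside it. *Cox6a1*, which rose more in wild-type than in knockout cells by value, had a difference of -0.63 that missed the threshold (adjusted p = 0.0759). The count of 6 moved with single libraries, to 3 without wild-type day 0 replicate 1, knockout day 0 replicate 2 or wild-type day 3 replicate 2, and to 18, 16 and 12 without wild-type day 0 replicate 2, wild-type day 3 replicate 3 and knockout day 3 replicate 1.

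**Figure D4:**
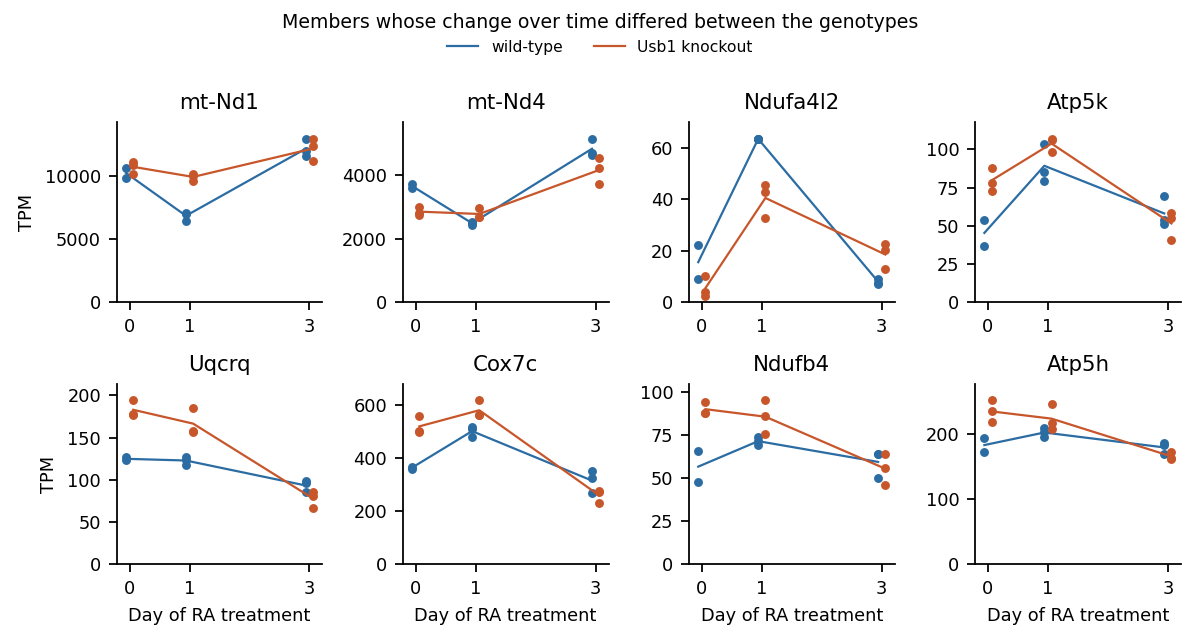
TPM of the 8 members whose change from day 0 to day 1 (mt-Nd1, mt-Nd4) or to day 3 (the other 6) differed between genotypes, by day of RA treatment, with points for libraries and lines through the group means in wild-type (blue) and Usb1 knockout cells (orange). For Uqcrq and Cox7c the orange points lie above the blue ones at day 0 and day 1, while at day 3 the orange means lie lower and the points overlap.

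What the nuclear members that moved have in common was looked at in gene length and in promoter sequence, which the choice of members did not use. Exon length per gene was taken from GENCODE M21, with a median of 1578 bases over the 80 tested nuclear members. At day 0, the 40 shorter genes had a median knockout minus wild-type log2 difference of 0.26, with 9 higher and 1 lower, and the 40 longer genes 0.04, with 4 higher and 2 lower. Between day 0 and day 3 in wild-type cells, 12 of the shorter genes rose and 4 fell (median 0.15), while 4 of the longer genes rose and 20 fell (median -0.21). In knockout cells over the same days, 5 shorter genes rose and 14 fell, and 4 longer genes rose and 19 fell.

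As a description over genes, which share libraries and are not replicates, Spearman's rho of length and log2 difference over the 80 members was -0.44 for knockout against wild-type cells at day 0, 0.06 at day 1 and 0.21 at day 3. Against day 0 it was -0.56 for day 1 and -0.38 for day 3 in wild-type cells, and -0.23 and -0.06 in knockout cells. For the difference between genotypes in the change it was 0.50 to day 1 and 0.45 to day 3. Over all 21861 genes with a length, the same 9 values were -0.26, -0.15, 0.06, -0.05, 0.03, 0.09, 0.22, 0.10 and 0.24. The 5 values of the largest size among the members all involve the wild-type day 0 libraries, both of which were low in genes at 1 read. The part of these libraries or of RNA quality in the relation was not tested.

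**Figure D5:**
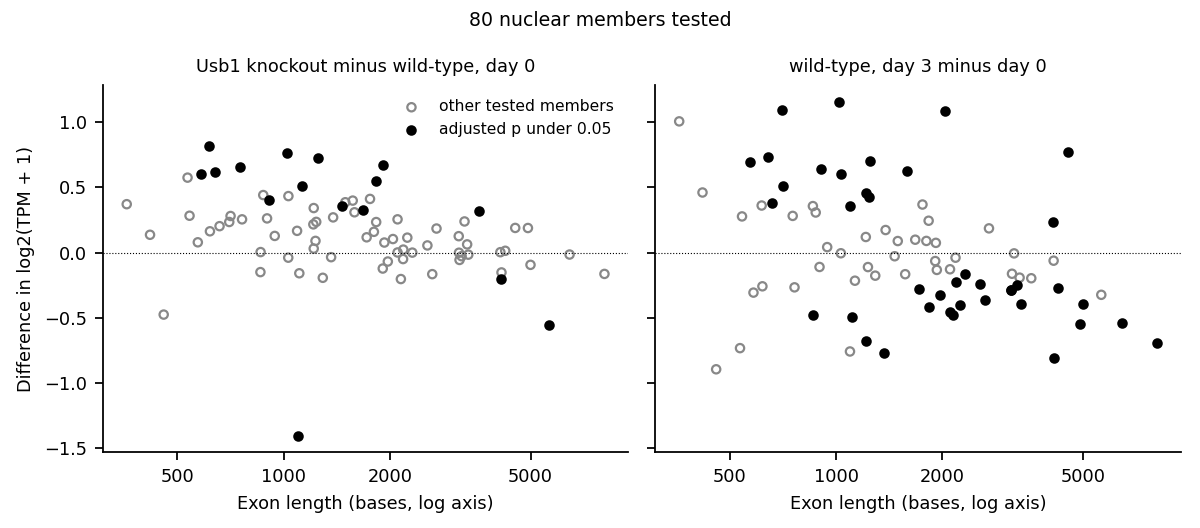
Log2 difference on the log2(TPM + 1) scale against exon length in bases (log axis) for the 80 tested nuclear members, for Usb1 knockout minus wild-type cells at day 0 (left) and day 3 minus day 0 in wild-type cells (right), with filled points for an adjusted p under 0.05. In both panels most filled points above 0 lie at shorter lengths, and in the right panel most of those below 0 lie at longer lengths.

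Nuclear subunit genes are classic targets of NRF1, of ETS-family factors such as GABP (NRF2) and of YY1. RefSeq promoters of GRCm38.p6, 250 bases before to 50 after the start of the gene, were found for 65 of the 82 nuclear members. They were searched on both strands, beside those of all 27025 genes with a promoter, whether expressed here or not. A gene was counted if any of its promoters held the motif. The NRF1 motif GCGCATGCG occurred in 8 of 65 (12.3%, beside 1.95% of all), the ETS motif CCGGAAGT in 5 of 65 (7.69%, beside 4.31% of all) and the YY1 motif AAGATGGCG in 7 of 65 (10.8%, beside 1.64% of all). At least 1 of the 3 was held by 19 of 65 (29.2%, beside 7.48% of all). No motif holds another, the NRF1 motif is part of a palindrome and can match on both strands, and a match describes letters and not a site of binding. The 8 promoters with the NRF1 motif are those of *Atp5g2*, *Atp5k*, *Atp5l*, *Cox6a1*, *Ndufa11*, *Ndufa8*, *Uqcr11* and *Uqcrc1*. These genes did not move as 1 group, as *Cox6a1*, *Uqcr11* and *Ndufa11* rose and *Uqcrc1*, *Atp5l* and *Ndufa8* fell in wild-type cells at day 3. Printed below are the promoters of *Cox6a1* (chr5:115348909-115349208, minus strand), which rose, and of *Uqcrc1* (chr9:108936398-108936697, plus strand), which fell. The promoter of *Uqcr11* (chr10:80406772-80407071, minus strand), which rose, holds an ETS motif besides. Only exact matches were searched, so the motif is the same in each promoter by the choice of search. Capitals mark the motif matches on either strand, and overlapping matches run together.
Cox6a1: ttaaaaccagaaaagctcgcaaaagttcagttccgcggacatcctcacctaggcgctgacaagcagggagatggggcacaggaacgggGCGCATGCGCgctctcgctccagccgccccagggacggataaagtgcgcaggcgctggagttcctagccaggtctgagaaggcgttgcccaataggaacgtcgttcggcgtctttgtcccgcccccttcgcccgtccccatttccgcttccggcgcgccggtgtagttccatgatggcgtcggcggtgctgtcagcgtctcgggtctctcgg
Uqcrc1: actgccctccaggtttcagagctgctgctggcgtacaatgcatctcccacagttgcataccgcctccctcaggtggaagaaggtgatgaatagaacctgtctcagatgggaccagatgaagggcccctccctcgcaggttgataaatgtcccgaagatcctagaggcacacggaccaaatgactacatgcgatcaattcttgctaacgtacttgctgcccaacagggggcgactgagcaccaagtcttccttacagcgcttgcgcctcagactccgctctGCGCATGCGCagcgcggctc
Uqcr11: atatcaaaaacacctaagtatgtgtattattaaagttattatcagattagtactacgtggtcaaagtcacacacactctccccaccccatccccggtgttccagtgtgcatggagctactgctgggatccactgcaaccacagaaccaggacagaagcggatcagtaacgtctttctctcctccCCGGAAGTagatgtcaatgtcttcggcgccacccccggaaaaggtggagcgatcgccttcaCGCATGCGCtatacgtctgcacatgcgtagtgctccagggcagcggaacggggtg

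Genes that make, process and regulate mitochondrial RNA were described beside the members, by lists drawn up from general knowledge. Over all genes tested, 29.6% rose and 22.5% fell at day 3 in wild-type cells and 29.7% and 21.8% in knockout cells, and the counts of each list stand beside these shares. Of the 13 mitochondrial protein genes, 12 rose at day 3 in wild-type and 6 in knockout cells, while no mitochondrial ribosomal RNA was called higher. Most genes for processing and stability of mitochondrial RNA fell. Of 19 such genes, 13 fell and 1 rose in wild-type cells (median log2 difference -0.74, beside 0.10 for all genes) and 11 fell and 3 rose in knockout cells (median -0.43). Examples in wild-type cells were *Elac2*, which cuts tRNAs out of the precursor (-1.32, adjusted p = 1.24e-10), *Lrpprc*, which stabilises mitochondrial mRNAs (-0.88, adjusted p = 7.09e-09), and the poly(A) polymerase *Mtpap* (-0.74, adjusted p = 8.29e-06). Already at day 1, 12 had fallen and 1 risen in wild-type cells, beside 12.5% and 25.5% of all genes, and 8 had fallen and 1 risen in knockout cells, beside 11.7% and 16.0%. At day 0, 4 were lower in the knockout, beside 6.80% of all genes. At day 3 *Pnpt1*, the mitochondrial polynucleotide phosphorylase, was higher in the knockout (67.4, 71.5 and 73.5 TPM in wild-type cells, against 194, 236 and 249.9 TPM in the knockout, log2 difference 1.66, SE 0.10, adjusted p = 1.89e-07).

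Of 16 genes for replication and transcription of mitochondrial DNA, 8 fell and 1 rose in wild-type cells at day 3 (median -0.27), and 6 fell and 1 rose in knockout cells. *Tfam*, which packages and activates mitochondrial DNA (-0.49, adjusted p = 1.11e-06), and the polymerase *Polrmt* (-0.51, adjusted p = 2.31e-05) were among those that fell, and *Polg*, the replicative DNA polymerase, was the one that rose (1.33, adjusted p = 5.94e-08). Of 8 regulators of mitochondrial biogenesis tested, 6 fell in wild-type (median -0.60) and 4 in knockout cells. *Ppargc1b*, a coactivator of nuclear subunit genes, fell most in wild-type cells (-1.63, adjusted p = 3.65e-05), and *Nrf1* and *Gabpa* fell as well (-0.29, adjusted p = 0.00262, and -0.76, adjusted p = 7.41e-06).

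Assembly factors were divided like the subunits. Over 3 days in wild-type cells, 2 rose and 7 fell of 15 for complex I, 1 rose of 10 for complexes II and III, 5 rose and 6 fell of 16 for complex IV, and 1 rose and 2 fell of 4 for complex V and its inhibitor. In knockout cells the counts were 2 and 10 for complex I, 1 and 0 for complexes II and III, 3 and 6 for complex IV, and 1 and 1 for complex V. *Foxred1*, an assembly factor of complex I (-1.15, adjusted p = 4.78e-08), and *Pet100*, of complex IV (1.20, adjusted p = 0.00845), show the spread. Of 14 genes of the tricarboxylic acid cycle, 4 rose and 4 fell in wild-type and 3 rose and 3 fell in knockout cells. Among the 6 subunits outside the naming rule, *Cox4i1* (0.88, adjusted p = 9.42e-06), the broadly expressed form of subunit IV, and *Cox4i2*, the hypoxia-linked form (1.79, adjusted p = 0.011), rose in wild-type cells, and *Cyc1* (-0.28, adjusted p = 0.000466) and *Cycs* (-0.42, adjusted p = 0.000586), cytochromes of the chain, fell. The counts in knockout cells were also 2 and 2. Of 4 RNAs retained in the nucleus, taken as a rough mark of the share of nuclear RNA in a library, 1 was lower in the knockout at day 0, 3 at day 1 and 1 at day 3. Over all genes 6.80%, 13.6% and 3.56% were lower on these days. In wild-type cells 2 fell at day 1 and 1 rose at day 3, beside 12.5% and 29.6% of all genes. In knockout cells 3 fell at day 1 and 1 rose at day 3, beside 11.7% and 29.7%. Whether these RNAs mark the share of nuclear RNA, and the part of that share in the members' values, was not tested.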

How the data were processed

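RNA-seq libraries of R1 mouse embryonic stem cells, wild-type or of the *Usb1* knockout line KO-1, were analysed at day 0, 1 and 3 of RA treatment (17 libraries in 6 groups). The authors extracted total RNA with RNeasy kits, prepared NEBNext Ultra libraries and sequenced them on a NovaSeq platform. The submitters' processing notes name HISAT2 2.1.0, StringTie 1.3.6 and GRCm38.p6. The deposited values are TPM per gene, calculated by the authors from reads and gene length. They are not counts, so tests were made on log2(TPM + 1).

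limma 3.58.1 in R 4.3.3 was fitted with 6 group means and a variance trend to the 21871 genes with at least 1 TPM in at least 2 libraries, and p-values were adjusted by Benjamini-Hochberg over all of them within each comparison, with a threshold of 0.05. The comparisons were knockout minus wild-type on each day, day 1 and day 3 against day 0 in each genotype, and the difference between genotypes in these changes. Genes named are the members called with the largest rises and falls in each comparison, the subunits of complex II, paralogue pairs, and all members called in the differences between genotypes. Genes named outside this rule, among them *mt-Co3* and *mt-Nd3*, were chosen after their values were seen. The members and all lists (subunits outside the naming rule, assembly factors of complexes I, II and III, IV and V, mitochondrial DNA replication and transcription, mitochondrial RNA processing and stability, biogenesis regulators, tricarboxylic acid cycle, nuclear-retained RNAs, and markers of embryonic stem cells, primitive endoderm, neural progenitors and fibroblast feeders) were chosen with earlier results of these data known.

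Reads were recovered from TPM and exon length in GENCODE M21 (whole within 0.01 for 95.8% to 96.7% of genes above 0) for an alternative with voom and to give depth, which was 15404378 to 17300188 reads on genes. Other alternatives were a pseudocount of 0.1, no filter, a filter at 5 TPM, scaling to nuclear protein-coding genes or to an equal median, quantile normalization, robust empirical Bayes, fitting the libraries of the comparison only, the replicate number as a block, an additional 1.5-fold threshold, leaving out each library, and, added after the data were seen, voom and the chromosome 1 copies added to their genes. The script was tested on simulated data. Sequences of promoters are from RefSeq. Python 3.11.15 with pandas 2.3.3, numpy 2.4.6, biopython 1.88 and matplotlib 3.10.9 was used for tables and figures. The authors' own fold changes were not used.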

Additional observations from a re-analysis of the deposited data

Results flagged for a closer look

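The change over time differed between the genotypes, by the limma test of that difference, in 8 members. From day 0 to day 1 this held for *mt-Nd1* (0.47 on the log2 scale, adjusted p = 0.0496) and *mt-Nd4* (0.52, adjusted p = 0.0302), both of which fell at day 1 in wild-type cells alone by the threshold. From day 0 to day 3 it held for *Uqcrq* (-0.81, adjusted p = 0.00324), *Cox7c* (-0.79, adjusted p = 0.00414), *Ndufb4* (-0.77, adjusted p = 0.0388), *Atp5h* (-0.47, adjusted p = 0.0206) and *Atp5k* (-0.99, adjusted p = 0.0268), for which the change was more negative in knockout cells, and for *Ndufa4l2* (2.49, adjusted p = 0.0192), which was above its day 0 level at day 3 in knockout cells.

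Of the 22 alternatives tried for each, the call was lost in 0 for *Uqcrq* and *Cox7c*, in 1 for *Ndufa4l2*, 5 for *Atp5k*, 6 for *Atp5h*, 10 for *Ndufb4*, 11 for *mt-Nd4* and 16 for *mt-Nd1*.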

How the results depend on the processing

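Members called numbered 18, 5 and 2 for knockout against wild-type cells at day 0, 1 and 3, 31 and 52 for day 1 and day 3 against day 0 in wild-type cells, 14 and 48 for the same in knockout cells, and 2 and 6 for the difference between genotypes in the change to day 1 and to day 3. Scaling to an equal median, which moved the log2 differences of all genes by -0.28 (day 3 in knockout cells) to 0.21 (knockout against wild-type cells at day 1), gave 10, 12 and 0 for the 3 genotype comparisons, 16 for day 1 in wild-type cells, 4 for day 1 in knockout cells and 0 for the difference in the change to day 1. Quantile normalization gave 5 for the genotypes at day 3, 1 for the difference in the change to day 1 and 10 in the change to day 3, and turned *mt-Nd1* at day 3 in wild-type cells to a log2 difference of -0.23. For the highest mitochondrial genes it follows rank alone and cannot test a change in amount. With only the libraries of the comparison, limma called 0, 12 and 0 members between genotypes, 29 at day 3 in wild-type cells and 2 for the difference in the change to day 3. Voom on recovered reads called 14 and 4 between genotypes at day 1 and day 3 and 4 for the difference in the change to day 1. A pseudocount of 0.1 gave 1 for the genotypes at day 3 and 1 for the difference in the change to day 1, and no filter gave 0 for each of these. With a further 1.5-fold threshold the 9 counts were 8, 1, 1, 12, 21, 4, 16, 0 and 5. Leaving out each library in turn gave 5 to 19, 2 to 5 and 0 to 5 between genotypes at day 0, 1 and 3, 21 to 34 and 45 to 50 at day 1 and day 3 in wild-type cells, 6 to 11 and 42 to 50 in knockout cells, and 0 to 10 and 3 to 18 for the differences in the change to day 1 and day 3. The cause of these changes was not tested. Libraries with the same replicate number did not deviate together (correlation of deviations from the group means -0.13 to 0.12 over 40 pairs, against -0.12 to 0.11 over 80 pairs with different numbers), so the number is not a pairing. With the replicate block, the count for the difference in the change to day 1 was 1, and the other 8 counts stayed within 1.5 times. Of 81 pairs of a named gene and a comparison, 32 were called in every one of the alternatives that apply to them, 28 calls were lost with an equal median and 36 with only the libraries of the comparison. With 2 or 3 libraries a group, small differences could not be detected, and the tested members with under 20 reads in every library (*mt-Atp8*, *Cox7b2*, *Cox8b* and *Cox8c*) carry the most counting error.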

Other observations

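The ribosomal RNAs of mitochondrial DNA, which are made from the same precursor as the mRNAs but are no members, were higher in the knockout, *mt-Rnr1* at all 3 days and *mt-Rnr2* at day 0 and day 1. *mt-Rnr1* was at 626 and 514 TPM in wild-type cells, against 1079, 1084 and 1009 TPM in the knockout, at day 0 (log2 difference 0.90, SE 0.11, adjusted p = 0.000221). At day 1 it was at 442, 532 and 514 TPM and 1140.4, 1083 and 1184 TPM (log2 difference 1.20, SE 0.10, adjusted p = 2.78e-06), and at day 3 at 597, 568 and 490.4 TPM and 775, 630.2 and 743 TPM (log2 difference 0.37, SE 0.10, adjusted p = 0.0345). Its genotypes did not overlap at any of the 3 days. For *mt-Rnr2* the knockout minus wild-type values were log2 difference 0.42, SE 0.12, adjusted p = 0.0405 at day 0, then log2 difference 0.78, SE 0.11, adjusted p = 0.000263 at day 1, and log2 difference 0.09, SE 0.11, adjusted p = 0.762 at day 3. Over the same comparisons the median log2 difference of the 13 mitochondrial protein genes was 0.05, 0.23 and -0.28. That of the 7 outside the copied stretch was -0.18, 0.16 and -0.22. From day 0 to day 3 the ribosomal RNAs did not rise with the protein genes. In wild-type cells the limma log2 difference was -0.04 for *mt-Rnr1* (adjusted p = 0.778) and 0.04 for *mt-Rnr2* (adjusted p = 0.803). In knockout cells both ribosomal RNAs fell, *mt-Rnr1* by -0.57 (adjusted p = 0.000218) and *mt-Rnr2* by -0.29 (adjusted p = 0.0409). These genes were looked at after the members' values had been seen, and the amount of ribosomal RNA in a library depends on how it was depleted or selected, a part that was not tested.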
